A study of Homo sapiens with 8 samples.

Results

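Interferon response genes were followed in CAL-27 cells, an established human line of head and neck squamous carcinoma, after exposure to 2 inhibitors that the study's title assigns to protein kinase C (written PCK there). Enzastaurin is a synthetic kinase inhibitor developed against the beta form of that kinase. The set held 39 genes listed by name, and a probe belonged to it where the gene name on the array was one of these names or an older form of it for IFI6, ISG15 and RIGI. By this rule 35 of the 39 genes had a probe, with 50 of the 41000 probes on the array, and 22 of them had 1 probe. DDX60, IRF9 and XAF1 were found only by matching probe accessions to RefSeq and are given apart, and CMPK2 had no probe by either route. All 35 genes lay above background on all 8 arrays and entered the tests beside the other genes, 12931 in all, and 0 of them were saturated.

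The 3 groups were control (n = 3 arrays), enzastaurin at 10 µM (n = 3) and a compound named Go (n = 2), whose dose and full name are not in the labels. All cells were grown with 10% FBS, serum-starved for 24 h and harvested 24 h after the treatment began, and what the control cells received in place of an inhibitor is not stated. Whether replicate arrays came from different cultures is not stated in the labels, and p-values therefore speak only of differences among these arrays, and 1 cell line is a narrow model of the tumour type. RNA was measured in bulk, so fewer cells that express a gene and less RNA per cell cannot be told apart.

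Interferons are secreted proteins that cells release on sensing viral nucleic acid or other danger signals. Type I interferons bind a receptor whose kinases, JAK1 and TYK2, phosphorylate STAT2, which joins IRF9 in a complex that binds the interferon-stimulated response element (ISRE) of target genes. Type II interferon acts mainly through a second element, GAS. The induced genes encode sensors, antiviral effectors, ubiquitin-like modifiers and chemokines, and many carcinoma lines express part of them without added interferon.

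The ISRE core was searched as GAAANNGAA and GAS as TTCNNNGAA, on both strands and with overlapping matches counted, in the 250 bases before each RefSeq gene start (build GRCh38.p14). Of the 39 listed genes 32 had an entry, and 19 of them (59.4%) held the ISRE core, against 6.88% of all 35116 promoters of the same length. GAS letters stood in 10 of the 32 (31.2%), against 6.57% of all promoters, and 5 genes held both. A match is a description of letters and not evidence of binding. The 6 promoters printed here were chosen after the values were seen, for genes with different responses on the arrays, and capitals mark ISRE core matches. RSAD2, HERC5 and OAS3 were higher with both inhibitors, SAMD9 was higher with Go and lower with enzastaurin, BST2 was lower with enzastaurin, and ISG15 was called in no comparison. They lie at chr2:6865635-6865884 (plus strand) for RSAD2, chr4:88456869-88457118 (plus strand) for HERC5, chr12:112938224-112938473 (plus strand) for OAS3, chr7:93117980-93118229 (minus strand) for SAMD9, chr19:17405631-17405880 (minus strand) for BST2 and chr1:1013247-1013496 (plus strand) for ISG15, and each is written in the direction of its gene.
RSAD2: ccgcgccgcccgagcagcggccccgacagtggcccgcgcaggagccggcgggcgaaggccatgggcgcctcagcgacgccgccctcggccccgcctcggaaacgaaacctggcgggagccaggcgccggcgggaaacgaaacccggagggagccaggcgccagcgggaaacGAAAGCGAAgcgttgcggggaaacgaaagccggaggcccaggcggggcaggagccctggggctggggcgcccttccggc
HERC5: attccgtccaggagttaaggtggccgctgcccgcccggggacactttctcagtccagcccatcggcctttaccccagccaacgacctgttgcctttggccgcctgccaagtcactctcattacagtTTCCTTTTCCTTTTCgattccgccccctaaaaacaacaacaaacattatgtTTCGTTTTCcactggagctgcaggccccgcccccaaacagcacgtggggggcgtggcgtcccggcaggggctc
OAS3: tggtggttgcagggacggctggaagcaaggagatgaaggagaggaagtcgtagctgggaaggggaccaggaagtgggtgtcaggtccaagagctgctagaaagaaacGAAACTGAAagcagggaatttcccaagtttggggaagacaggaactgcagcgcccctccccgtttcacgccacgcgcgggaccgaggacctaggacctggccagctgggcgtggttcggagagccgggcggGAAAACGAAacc
SAMD9: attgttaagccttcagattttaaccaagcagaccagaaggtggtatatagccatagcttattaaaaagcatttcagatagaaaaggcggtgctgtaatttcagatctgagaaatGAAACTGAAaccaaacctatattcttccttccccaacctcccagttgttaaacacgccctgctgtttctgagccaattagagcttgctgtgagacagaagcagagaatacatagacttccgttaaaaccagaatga
BST2: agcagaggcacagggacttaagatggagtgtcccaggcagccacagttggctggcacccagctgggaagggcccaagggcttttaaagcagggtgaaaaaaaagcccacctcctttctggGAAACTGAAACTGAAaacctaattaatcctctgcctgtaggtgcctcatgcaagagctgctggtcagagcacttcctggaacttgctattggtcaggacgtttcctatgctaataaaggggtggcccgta
ISG15: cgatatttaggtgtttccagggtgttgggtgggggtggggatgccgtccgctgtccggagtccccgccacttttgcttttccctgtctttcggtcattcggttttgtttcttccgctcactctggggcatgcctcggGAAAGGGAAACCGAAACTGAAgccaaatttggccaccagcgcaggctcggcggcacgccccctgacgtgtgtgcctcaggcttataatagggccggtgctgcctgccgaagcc

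All 6 hold the ISRE core, but 13 of the 32 genes with an entry do not. These 13 include MX1, SAMD9L and HERC6, which were higher with Go and held neither motif in the window searched. They also include IRF1 and IFI35, which were lower with enzastaurin and held a GAS match only. A missing match holds only for these letters in the window listed for that gene, and is not evidence that the gene lacks the element. Whether that window lies before the start of the transcript named for the probe was not tested, for MX1 or any other gene. HERC5 held 3 ISRE cores, the pair farthest from the start overlapping at 124 and 118 bases before it. ISG15 held 3 overlapping matches between 113 and 101 bases before its start, and RSAD2 and SAMD9 held 1 each, at 79 and 136 bases. BST2 held 2 overlapping ISRE cores and 2 GAS matches. Among genes called higher with Go than control, 8 of 11 with an entry held the core, and among genes not called there 10 of 17. With enzastaurin the counts were 4 of 6 called higher, 2 of 4 called lower and 12 of 18 not called.

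On each array 52.1% to 57.3% of probes exceeded background. The labels name no slide, and it was inferred by splitting the arrays at the largest gap in mean horizontal spot position, 25.6 µm. The controls and Go 1 lay at 10930.1 to 10951.0 µm, and Go 2 and the 3 enzastaurin arrays at 10897.1 to 10904.5 µm. Such a split always yields groups, so the slides remain an inference. By it, no slide held both enzastaurin and control arrays. A slide effect on that comparison could be estimated only through the difference between Go 1 and Go 2. By vertical spot position, control 1, control 2, control 3 and Go 1 followed each other in that order on their inferred slide. On the other, Go 2 came before enzastaurin 1, 2 and 3. The first principal component over all genes held 77.57% of the variance, with controls at -52.22, -43.62 and -22.46, Go at 0.04 and 24.36, and enzastaurin between 29.75 and 33.08. On the inferred slide of the controls these values rose in the order of position. Of 12 keratinocyte and squamous carcinoma markers 11 had a probe and all 11 were tested, with summed normalised intensities of 62202 to 79343 in control, 65539 to 70776 with enzastaurin and 58517 to 64657 with Go. Of 10 leukocyte markers 7 were tested, with sums of 1776 to 2238, 2230 to 2616 and 1804 to 2293, and PTPRC and LYZ never exceeded background. Of 6 markers of interferon-producing plasmacytoid dendritic cells and macrophages 1 was tested (CSF1R), with sums of 205 to 296, 452 to 474 and 194 to 200, and CLEC4C never exceeded background. Fibroblast and endothelial sums stayed between 78 and 232 on every array. Over all genes tested, 18.3% were called higher and 36.9% lower with enzastaurin, and 11.8% and 19.9% with Go. Of the 11 squamous markers, 2 were called higher and 2 lower with enzastaurin, and 1 higher and 5 lower with Go. Differences for enzastaurin and Go were 1.57 and 1.14 for EPCAM and -0.73 and -0.64 for TP63, all called, while KRT14 was called with Go alone, at -0.82. Of the 7 leukocyte markers, 1 was higher and 2 lower with enzastaurin, and 1 higher and 1 lower with Go. HLA-DRA, an antigen-presentation gene that interferon gamma induces, was higher with both, at 1.13 and 0.50. CD3E was lower with both, at -0.69 and -0.41, and CD79A was lower with enzastaurin, at -0.52. CSF1R was higher with enzastaurin by 1.20, as was the fibroblast marker LUM by 0.63. The markers given singly were chosen after their values were seen, and the part of these signals in the results was not tested.

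Calls over the set were all upward with Go and went both ways with enzastaurin. A gene was called where limma's moderated test gave an adjusted p under 0.05 over all genes, and all differences are of log2(normalised intensity + 50). With Go against control, 14 of 35 genes were higher and 0 lower, where 11.8% of all genes tested were called higher and 19.9% lower. The median difference of the 35 was 0.36, against -0.11 over all genes, and 30 of the 35 lay above 0, where 37.3% of all genes did. With enzastaurin against control, 7 were higher and 6 lower, where 18.3% of all genes were called higher and 36.9% lower. There the median was -0.01, against -0.14 over all genes, and 17 of 35 lay above 0, where 36.7% of all genes did. With the slide as a block it was 0.22, against -0.08 over all genes, with 25 of 35 above 0, a share not counted there for all genes. Neither the upward nor the downward calls were kept there, and limma called 0 of the 35. Calls over all 12931 genes fell as well, from 2365 higher and 4771 lower to 175 and 290. For the 35, limma gave 6 higher and 0 lower at an unadjusted p under 0.05. Directly compared, 4 genes were higher with Go than with enzastaurin and 0 lower, where 4.44% of all genes were called higher and 2.91% lower. That median was 0.28, against 0.04 over all genes, with 30 of 35 above 0, where 56.8% of all genes were. The comparisons share their control, enzastaurin or Go arrays, so they are not independent. At an unadjusted p under 0.05, limma gave 20 higher and 0 lower with Go against control, and 15 and 0 with Go against enzastaurin. The share of all genes was not counted at any unadjusted threshold given here, so those counts cannot be set against it.

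**Figure D1:**
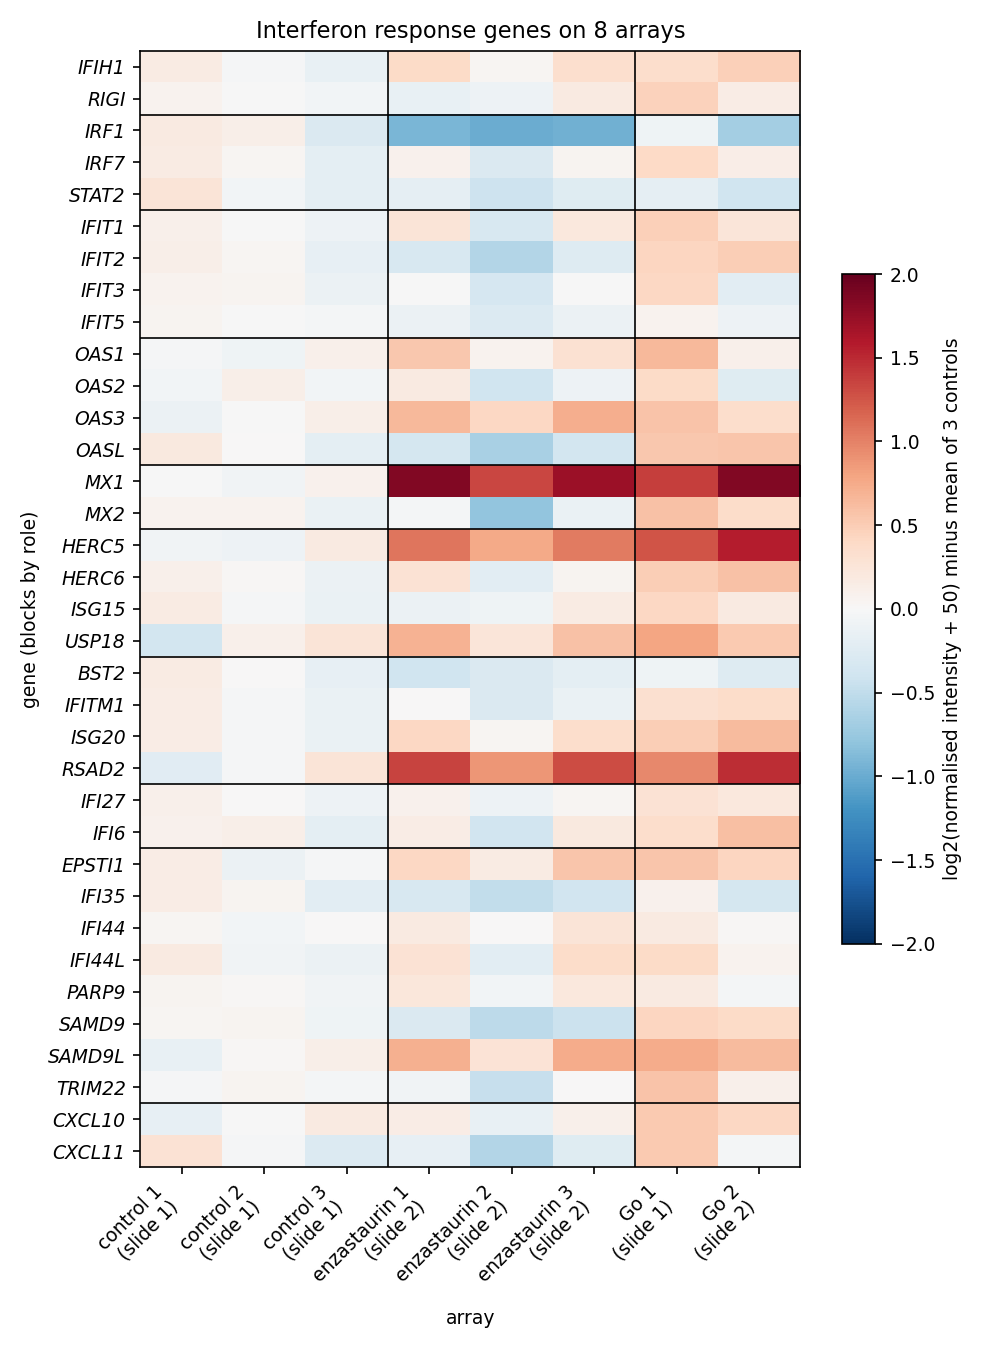
Heat map of the 35 genes (rows, in blocks by role) on the 8 arrays (columns, with the slide inferred from spot positions). Colour gives log2(normalised intensity + 50) minus the mean of the 3 control arrays. MX1, HERC5 and RSAD2 are red on all 5 treated arrays, IRF1 is blue on the 3 enzastaurin arrays, and enzastaurin 2 is the lowest enzastaurin array in 32 of the 35 rows.

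With each gene read from its brightest probe, MX1, RSAD2 and HERC5 had the largest rises, and with both inhibitors; a dimmer probe of IFI27, given further on, rose more. MX1 is a dynamin-like GTPase that blocks nucleocapsids of influenza and other viruses. Its normalised intensity was 7008, 6738 and 7521 on the control arrays, 25624, 17900 and 23217 on the enzastaurin arrays and 18571 and 25550 on the Go arrays. Every treated array stood above every control array, and the enzastaurin and Go values overlapped. The log2 difference was 1.63 (SE 0.16, adjusted p = 0.000269) for enzastaurin and 1.61 (SE 0.17, adjusted p = 0.00294) for Go against control, which is 3.09-fold and 3.06-fold. The Go against enzastaurin difference was -0.01, with a 95% interval of -0.41 to 0.38. MX2, the nuclear envelope paralogue that restricts HIV, was called in neither comparison with control, at -0.32 and 0.47. Its Go against enzastaurin difference was 0.80 (SE 0.21, adjusted p = 0.0506), with no overlap between the groups.

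RSAD2 (viperin) is a radical SAM enzyme that makes a chain-terminating nucleotide from CTP. It measured 240, 284 and 356 in control, 816, 575 and 790 with enzastaurin and 609 and 896 with Go. Again no treated array reached down to the controls, and enzastaurin 2 was the lowest treated array. The rise was 1.18 (SE 0.18, adjusted p = 0.00118) with enzastaurin and 1.22 (SE 0.21, adjusted p = 0.00783) with Go, and the difference between the inhibitors had an interval of -0.43 to 0.51. Its second probe rose less, by 0.48 and 0.67, and was called in both comparisons with control.

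HERC5 is the main ligase that attaches ISG15 to newly made proteins. It was dim, with 67.4, 64.1 and 89.2 in control, 208, 158 and 204 with enzastaurin and 245 and 314 with Go. The 3 groups did not overlap, and Go was highest. Its log2 difference from control was 0.96 (SE 0.13, adjusted p = 0.000639) with enzastaurin and 1.41 (SE 0.14, adjusted p = 0.00252) with Go, and Go exceeded enzastaurin by 0.46 without passing the threshold (adjusted p = 0.0858). Because the offset of 50 is close to its control values, the log2 scale understates this change.

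**Figure D2:**
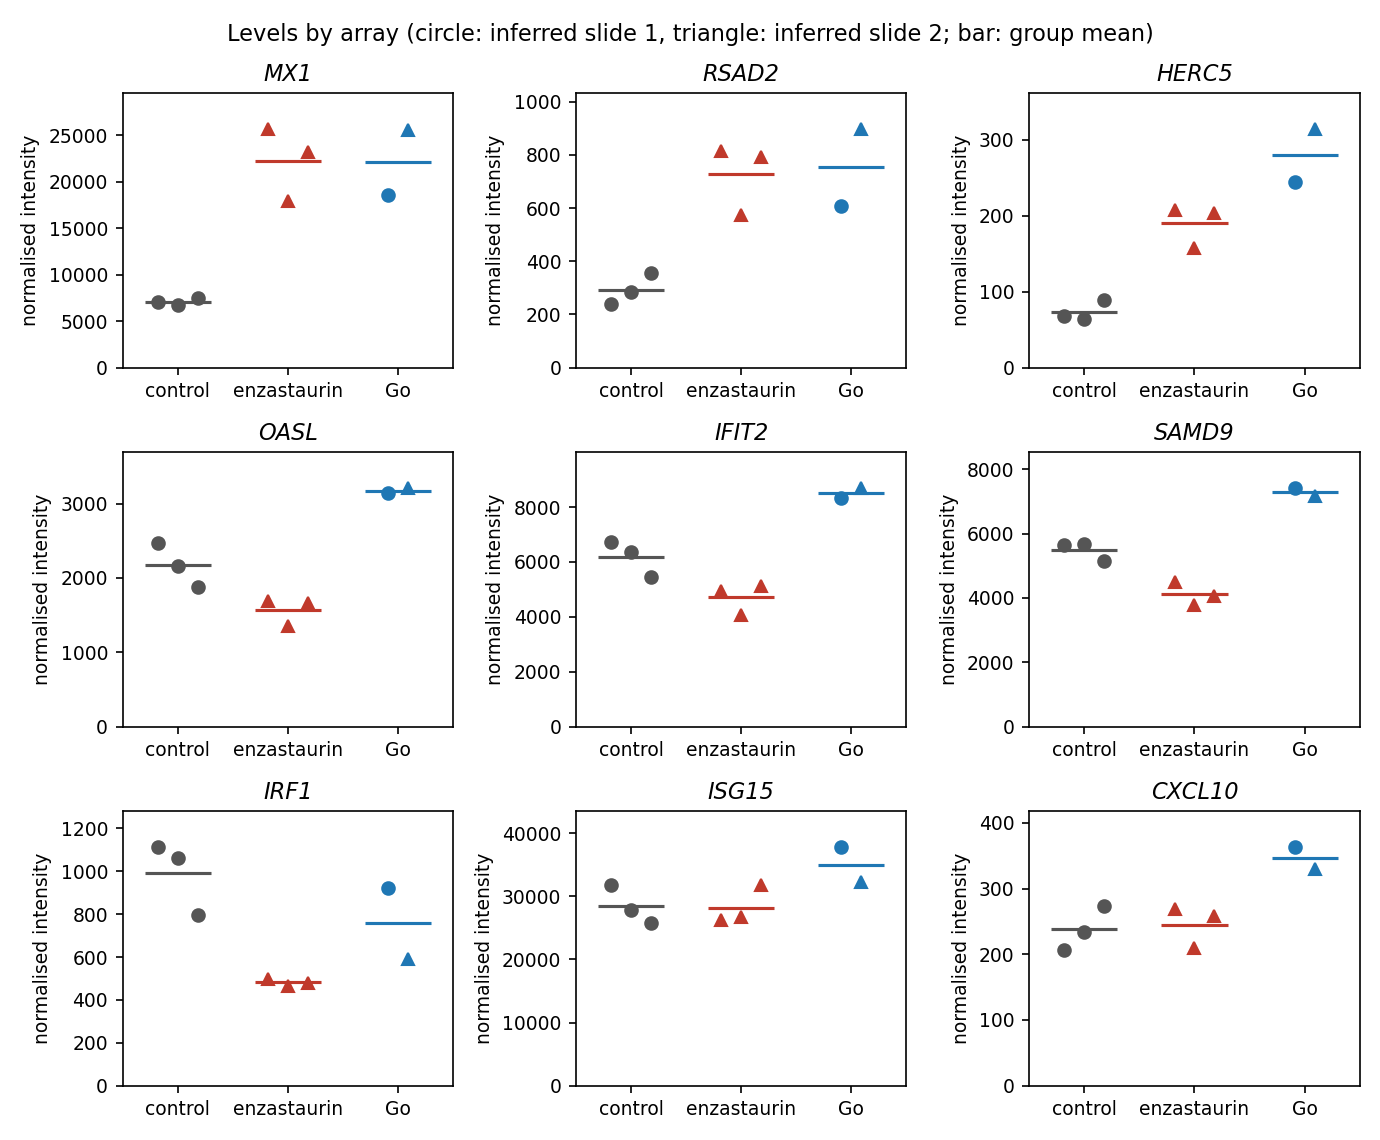
Normalised intensity (linear axis from 0) of 9 genes on each array, by group. Points are arrays, shaped by inferred slide, and bars are group means. MX1, RSAD2 and HERC5 are higher on all 5 treated arrays than on any control, OASL, IFIT2 and SAMD9 are highest with Go and lowest with enzastaurin, and IRF1 is lowest with enzastaurin.

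The rest of the ISG15 system moved less. ISG15 is a ubiquitin-like protein that is conjugated to targets and also secreted. It was among the brightest members, at 31723, 27860 and 25764 in control, 26174, 26738 and 31723 with enzastaurin and 37768 and 32251 with Go, and was called in no comparison. The Go arrays lay above the controls, and its differences were -0.01 for enzastaurin (95% interval -0.27 to 0.25) and 0.30 (SE 0.13, adjusted p = 0.102) for Go.

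USP18 removes ISG15 from proteins and dampens signalling at the type I receptor. Its intensities were 2335, 3234 and 3627 in control, 4897, 3573 and 4562 with enzastaurin and 5245 and 4364 with Go. Enzastaurin 2 fell within the control range, and the Go arrays did not. Both differences passed the test, at 0.51 (SE 0.18, adjusted p = 0.0368) and 0.66 (SE 0.20, adjusted p = 0.0358). HERC6, a relative of HERC5, gave 1249, 1182 and 1074 in control, 1438, 1004 and 1216 with enzastaurin and 1662 and 1777 with Go. Both Go values were above every other array, with 0.54 (SE 0.14, adjusted p = 0.0237) against control, while the enzastaurin arrays lay on both sides of the controls, with 0.05.

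OASL, IFIT2 and SAMD9 were the genes called in all 3 comparisons: higher with Go than control, lower with enzastaurin than control, and higher with Go than enzastaurin. OASL is an OAS relative without synthase activity that enhances RIG-I signalling. It measured 2467, 2160 and 1877 in control, 1685, 1352 and 1664 with enzastaurin and 3142 and 3205 with Go. The groups were fully separate, with both Go arrays on top and the 3 enzastaurin arrays at the bottom. Go exceeded enzastaurin by 1.002 (SE 0.14, adjusted p = 0.00474), or 2-fold, while the differences from control were 0.55 (SE 0.14, adjusted p = 0.0206) for Go and -0.45 (SE 0.12, adjusted p = 0.0123) for enzastaurin.

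IFIT2 binds viral RNA as part of the IFIT complex. Intensities of 6728, 6368 and 5471 in control compared with 4932, 4081 and 5128 under enzastaurin and 8319 and 8686 under Go. No array of one group fell within the range of another. The Go against enzastaurin difference was 0.85 (SE 0.13, adjusted p = 0.00735), with 0.46 (SE 0.13, adjusted p = 0.0277) for Go and -0.39 (SE 0.11, adjusted p = 0.0176) for enzastaurin against control. Its second, dimmer probe was higher with Go than control by 0.91 (adjusted p = 0.0174 among probes) but stood at 0.15 for enzastaurin, with no call.

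SAMD9 is a cytoplasmic restriction factor for poxviruses. Its values were 5651, 5685 and 5140 in control, 4491, 3788 and 4059 with enzastaurin and 7411 and 7182 with Go. They fell into the same order without overlap, and the inhibitors differed by 0.82 (SE 0.10, adjusted p = 0.00304). Against control, Go gave 0.41 (SE 0.10, adjusted p = 0.0197) and enzastaurin -0.41 (SE 0.09, adjusted p = 0.00457). The neighbouring paralogue SAMD9L did not follow this order. It measured 634, 718 and 769 in control, 1186, 858 and 1219 with enzastaurin and 1212 and 1117 with Go, so that all treated arrays exceeded the controls, by 0.58 (SE 0.14, adjusted p = 0.00713) and 0.69 (SE 0.15, adjusted p = 0.0157).

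The oligoadenylate synthases sense double-stranded RNA and make the messenger that activates RNase L. OAS3 gave 1390, 1504 and 1635 in control, 2398, 2020 and 2521 with enzastaurin and 2269 and 1940 with Go. Both treated groups lay wholly above control, with 0.60 (SE 0.11, adjusted p = 0.00248) for enzastaurin and 0.47 (SE 0.12, adjusted p = 0.0255) for Go. OAS1 stood at 0.30 and 0.38 in the same comparisons and OAS2 at -0.11 and 0.08, and neither was called. On their brightest probes OAS3 and OASL thus had opposite signs with enzastaurin and the same sign with Go. The second OAS3 probe, given further on, did not show this.

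Among the other IFIT genes, whose products bind foreign RNA ends, none was called. IFIT1 was 12254, 11438 and 10714 in control, 13664, 9188 and 13328 with enzastaurin and 15988 and 13510 with Go. The Go arrays exceeded the controls, while the enzastaurin arrays surrounded them. Its difference was 0.36 (SE 0.17, adjusted p = 0.132) for Go and 0.05 for enzastaurin. IFIT3 had 0.10 and -0.12, and IFIT5 -0.01 and -0.17.

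Of the RNA sensors, IFIH1 (MDA5), which binds long double-stranded RNA, was higher with Go. It gave 3176, 2792 and 2538 in control, 3712, 2918 and 3594 with enzastaurin and 3597 and 3960 with Go. Both Go arrays stood above all controls, and enzastaurin 2 lay among the controls. The Go difference of 0.41 (SE 0.13, adjusted p = 0.0447) was near the threshold, and enzastaurin gave 0.26 (SE 0.12, adjusted p = 0.0927). RIGI, which recognises short RNA with a 5′ triphosphate, was called in neither comparison with control, at 0.31 and -0.03. DDX60, an RNA helicase linked to RIGI signalling and found by accession only, gave -0.02 for Go and -0.17 for enzastaurin on its brightest probe. Its other probe had the opposite sign in both, at 0.55 for Go (adjusted p = 0.0518 among probes) and 0.46 for enzastaurin (adjusted p = 0.0435).

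No transcription factor of the set was called higher with either inhibitor. IRF1, which activates interferon and inflammatory genes, fell with enzastaurin and had the largest fall in the set. It measured 1112, 1064 and 796 in control, 498, 466 and 480 with enzastaurin and 922 and 593 with Go. The 3 enzastaurin arrays were tightly grouped below every other array, Go 1 lay among the controls and Go 2 below them. Enzastaurin gave -0.96 (SE 0.17, adjusted p = 0.00181) against control, which is 1.94-fold lower, and Go gave -0.38 (SE 0.19, adjusted p = 0.136). With the inferred slide as a block, the enzastaurin difference of IRF1 was -0.36 and was not called.

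STAT2, a transcription factor of the ISRE-binding complex, was dim, at 238, 182 and 161 in control, 163, 131 and 154 with enzastaurin and 163 and 134 with Go. All groups overlapped, with -0.28 and -0.28. IRF9, the DNA-binding part of that complex and found by accession only, gave 1267, 1139 and 986 in control, 1006, 817 and 952 with enzastaurin and 1265 and 1122 with Go. It was not called either, at -0.27 (SE 0.12, adjusted p = 0.0707) and 0.08. IRF7, the factor that drives interferon alpha genes, had -0.05 and 0.27.

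Among membrane and nucleotide effectors, ISG20, an exonuclease, gave 3555, 3127 and 2916 in control, 4264, 3295 and 4104 with enzastaurin and 4491 and 4987 with Go. The Go arrays were higher than every other array, with 0.56 (SE 0.13, adjusted p = 0.0189) against control, and enzastaurin gave 0.27 without a call. IFITM1, which blocks virus entry at membranes, had 16992, 15080 and 13836 in control, 15298, 12516 and 13937 with enzastaurin and 19115 and 19783 with Go. It was higher with Go than with enzastaurin, by 0.49 (SE 0.12, adjusted p = 0.0422), with no overlap, while its Go against control difference of 0.35 (SE 0.12, adjusted p = 0.0502) just missed the threshold.

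BST2 (tetherin), which holds budding virions on the cell surface, measured 7590, 6769 and 6015 in control, 5126, 5536 and 5916 with enzastaurin and 6387 and 5642 with Go. Enzastaurin lay below all controls, at -0.29 (SE 0.11, adjusted p = 0.0449), and Go overlapped both other groups. IFI35, a cytoplasmic protein that binds NMI, gave 964, 897 and 735 in control, 675, 594 and 648 with enzastaurin and 921 and 666 with Go. It was lower with enzastaurin, at -0.40 (SE 0.14, adjusted p = 0.032), and Go 1 and Go 2 fell on either side of the lowest control.

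EPSTI1, first described as an epithelial gene induced by stroma, had 194, 152 and 165 in control, 244, 197 and 274 with enzastaurin and 274 and 246 with Go. Every treated array exceeded every control, by 0.38 (SE 0.12, adjusted p = 0.0231) and 0.50 (SE 0.13, adjusted p = 0.0255), and the margin of enzastaurin 2 over control 1 was small. IFI44, IFI44L, PARP9 and TRIM22 were not called, at 0.11, 0.22, 0.07 and 0.34 for Go and 0.15, 0.15, 0.12 and -0.18 for enzastaurin.

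CXCL10 encodes a chemokine that draws T cells through CXCR3. It was dim, at 206, 234 and 274 in control, 269, 209 and 258 with enzastaurin and 363 and 330 with Go. Go stood above all other arrays, with 0.47 (SE 0.13, adjusted p = 0.0282), and enzastaurin spanned the controls, with 0.04. CXCL11, a ligand of the same receptor, gave 0.24 for Go and -0.33 for enzastaurin and was not called. Its second probe was called lower with enzastaurin, at -0.35 (adjusted p = 0.0415 among probes).

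IFI6, a mitochondrial survival protein, was not called, at 0.48 for Go (adjusted p = 0.0736) and -0.02 for enzastaurin. XAF1, an antagonist of the apoptosis inhibitor XIAP found by accession only, measured 797, 757 and 676 in control, 992, 704 and 1115 with enzastaurin and 1328 and 1295 with Go. Both Go arrays exceeded every other array, by 0.78 (SE 0.17, adjusted p = 0.0144) against control, and enzastaurin gave 0.29. Of its 2 other probes, one gave 0.88 and 0.22, and the other 1.31 and 0.95, for Go and enzastaurin. All 3 were called with Go and the last also with enzastaurin (adjusted p = 0.0112 among probes).

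**Figure D3:**
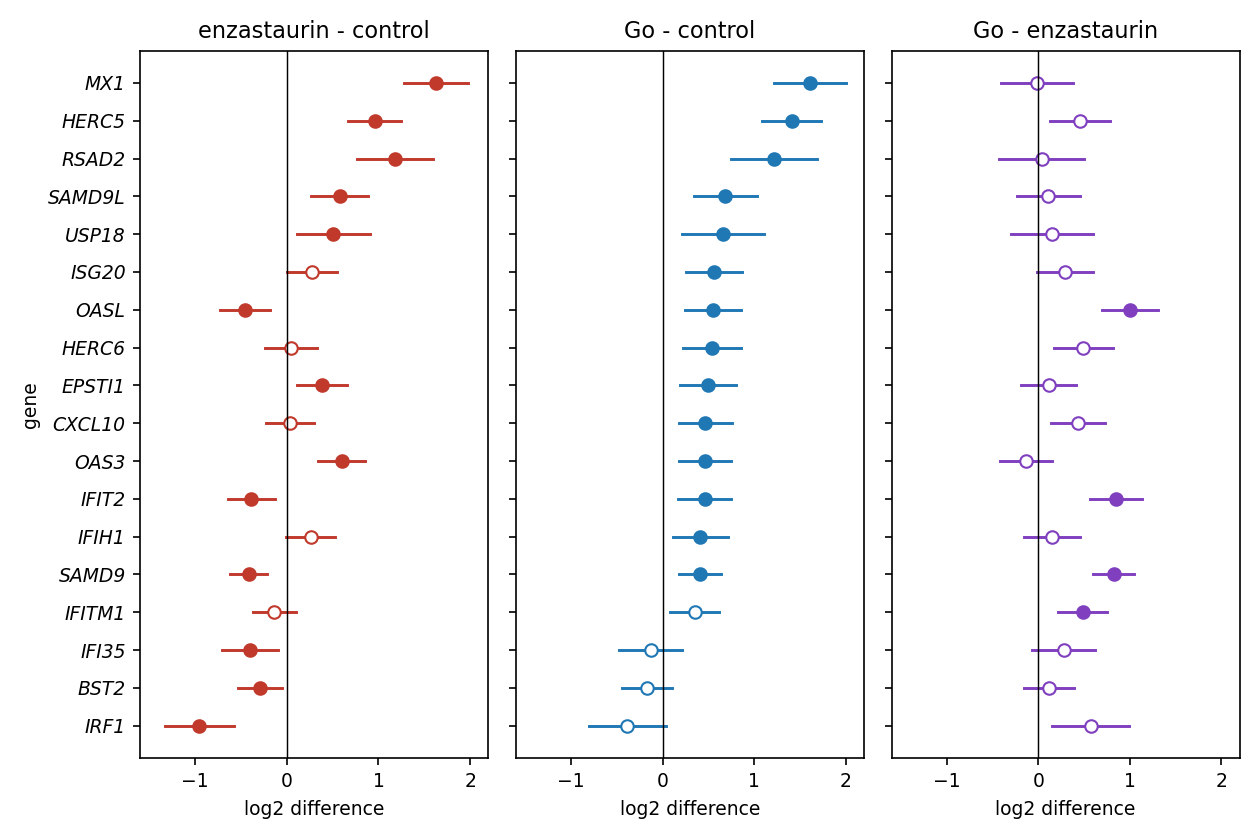
Log2 differences (points) with 95% intervals (lines) for the 18 genes called in at least 1 comparison, in 3 panels. Filled points passed the threshold. MX1, HERC5, RSAD2, SAMD9L, USP18, EPSTI1 and OAS3 are filled on the right in both comparisons with control, and OASL, IFIT2 and SAMD9 lie left of 0 for enzastaurin and right of 0 for Go.

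Across the set, 18 of 35 genes were called in at least 1 comparison and 17 in none, where 61.3% of all genes tested were called in at least 1, so the set was not called more often than other genes. Calls higher with both inhibitors covered 7 genes (MX1, OAS3, RSAD2, HERC5, USP18, SAMD9L and EPSTI1), a pattern that 9.47% of all genes had. For these 7 the Go against enzastaurin differences, from -0.13 to 0.46, did not pass the test. A further 4 (IFIH1, ISG20, HERC6 and CXCL10) were called with Go and not with enzastaurin, and for none of these did the direct comparison of the inhibitors pass. For IFI35, IRF1 and BST2, called lower with enzastaurin and not with Go, it did not pass either. Only OASL, IFIT2, SAMD9 and IFITM1 differed between the inhibitors by that test. The pattern of the first 3, called in all comparisons, was held by 0.24% of all genes. It was read from the calls of these genes themselves, so that share is not a test of it. All 3 lost the lower call with enzastaurin when the slide was a block. OASL and IFIT2 also lost it without enzastaurin 2, and IFIT2 and SAMD9 when their probes were averaged. IFIT2 lost it as well under median scaling and without control 1 or control 2. The call higher with Go than control was lost by all 3 genes without control 2. Their calls between the inhibitors were kept in all alternatives.

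Array 2 of the enzastaurin group read lowest of its 3 replicates for 32 of the 35 genes (91.4%), where it did so for 30.9% of all genes tested. Without it, 9 genes were called higher and 2 lower with enzastaurin, in place of 7 and 6. OASL, IFI35, BST2 and IFIT2 were then no longer called lower. In the Go group, array 1 exceeded array 2 for 25 of 35 genes (71.4%), against 56.4% of all genes. Control 3 was the lowest control for 24 of 35 (68.6%), against 49.7% of all genes. The source of these array differences was not tested.

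IFI27, a mitochondrial and nuclear envelope protein strongly induced by type I interferon, gave different answers on its 2 probes. The brighter probe, which stood for the gene, measured 43844, 41066 and 38403 in control, 43546, 38403 and 42090 with enzastaurin and 50003 and 47504 with Go, with no call. The dimmer probe measured 921, 1500 and 2307 in control, 29523, 26976 and 33116 with enzastaurin and 5880 and 24260 with Go. On it every treated array was above every control, and Go 1 lay far below the other 4 treated arrays. Those 4 are the arrays of the inferred slide that held no controls, and a slide effect on this probe was not tested. Its log2 difference was 4.29 (SE 0.47, adjusted p = 0.000411) for enzastaurin and 2.98 (SE 0.53, adjusted p = 0.00919) for Go in the fit of all probes, the largest of any member probe. With the mean of both probes IFI27 was called with both inhibitors, at a log2 difference of 2.15 and 1.61. The files give no probe sequence, and both probes carry the same transcript accession.

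Other genes with several probes also disagreed. USP18 had a second probe with -0.11 for enzastaurin and 0.07 for Go, neither called, at similar brightness. The second OAS3 probe lay at the control mean for enzastaurin and at -0.18 for Go, also without a call. The second probes of OAS2 and TRIM22 were called higher with Go, at 0.48 and 0.66 (adjusted p = 0.0325 and 0.015 among probes), where the brightest probes were not. Of 4 SAMD9 probes, the 3 others gave -0.30, -0.17 and 0.52 for enzastaurin and 0.22, 0.39 and 1.07 for Go. For SAMD9 the Go against enzastaurin difference was positive on each probe, from 0.52 to 0.82, whereas the sign against control with enzastaurin depended on the probe. MX1, HERC5 and OASL had 1 probe each, so this comparison was not possible for them.

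**Figure D4:**
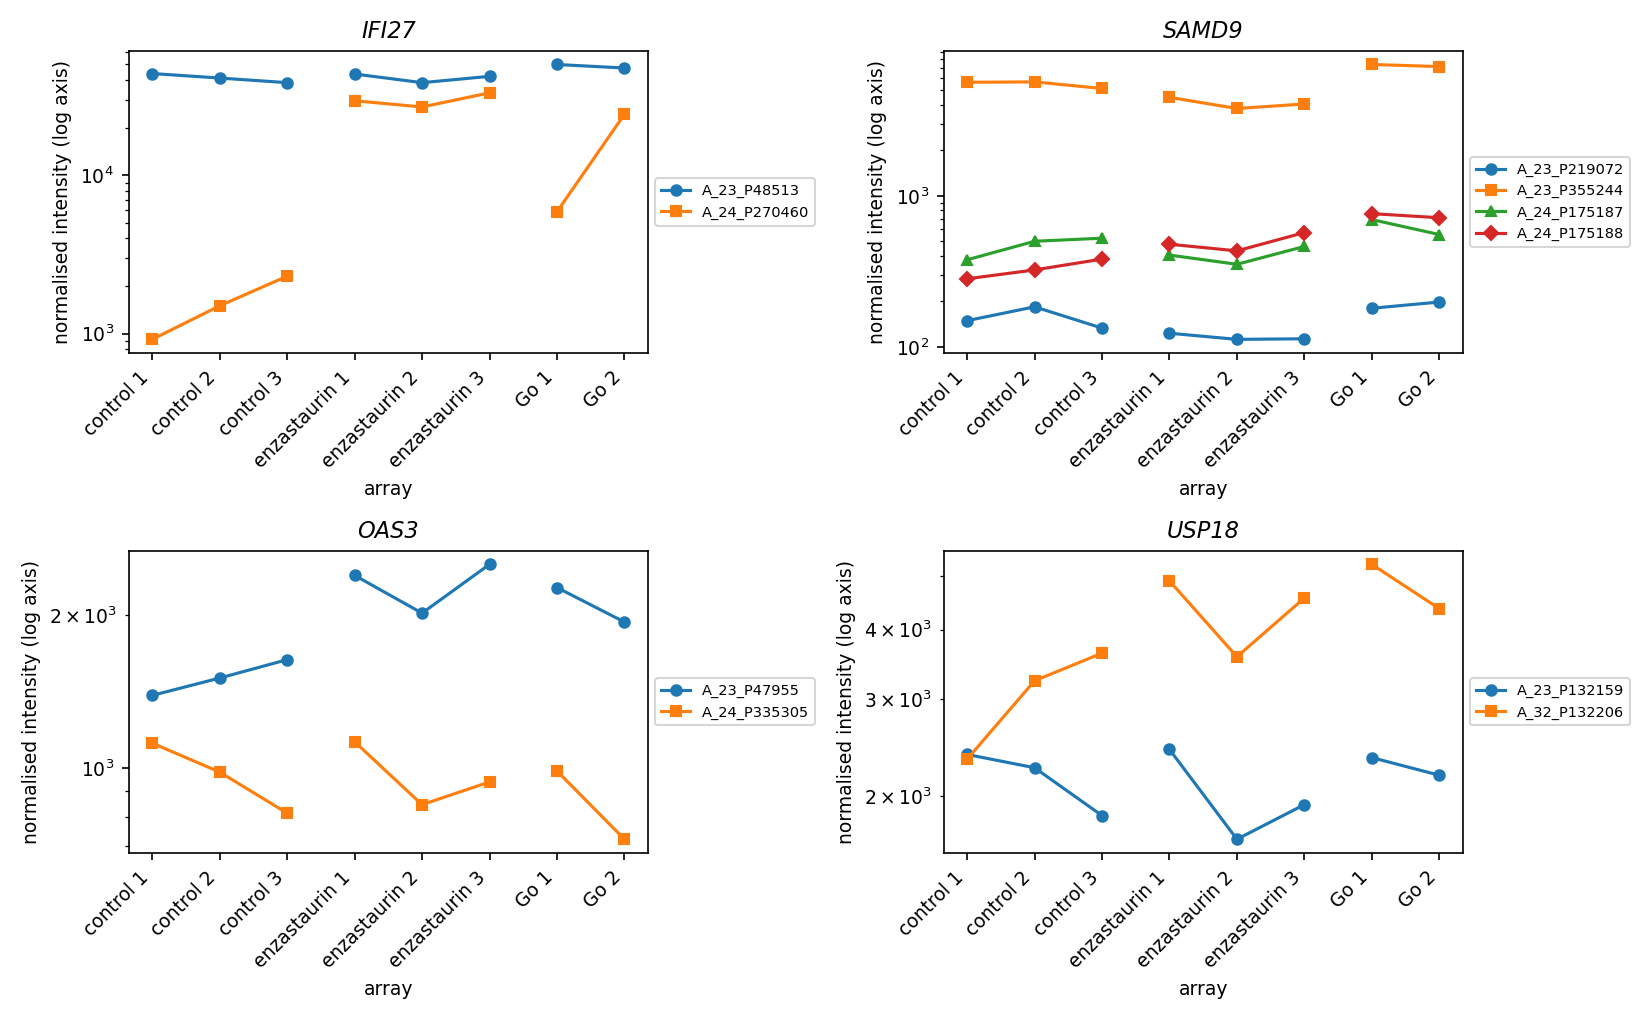
Normalised intensity (log axis) of every probe of IFI27, SAMD9, OAS3 and USP18 on the 8 arrays, with lines joining the arrays of a group and no order implied. The dimmer IFI27 probe runs from 921 to 2307 in control and from 26976 to 33116 with enzastaurin while the brighter probe stays at or above 38403, and the probes of SAMD9, OAS3 and USP18 differ in level and in direction.

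The inferred slide bears on the comparisons in different ways. Go 1 shared an inferred slide with the controls, at position 4 after control 1, 2 and 3. Position and treatment cannot be told apart there. For all 14 genes called higher with Go, Go 1 lay above all 3 controls. The 14 genes were chosen by a fit that held Go 1 and these controls, so this order is largely set by the choice. With the slide as a block, 3 of the 14 passed the threshold: MX1 at 1.38 (adjusted p = 0.00626), HERC5 at 1.26 (adjusted p = 0.00541) and RSAD2 at 0.96 (adjusted p = 0.047). These values equal Go 1 minus the control mean, since the block leaves that array as the only Go array in the comparison, and the test assumes that it varies like the other groups. They are therefore not a replicated result, and calls over all genes also fell with this block. The other 11 kept their sign, which the choice of genes also favours. Without control 2, 3 genes were called in place of 14, while calls over all genes fell from 1523 higher and 2571 lower to 553 and 459. Go 2 shared the other inferred slide with enzastaurin, at position 1, where position and treatment again cannot be told apart. It exceeded all 3 enzastaurin arrays for all 4 genes called in Go against enzastaurin. These 4 genes were likewise chosen by a fit that held Go 2. The block here gives Go 2 alone minus the enzastaurin mean, again without replication of Go. In that form OASL at 1.02, IFIT2 at 0.88 and SAMD9 at 0.80 passed (adjusted p = 0.0183, 0.0218 and 0.0135), and IFITM1 at 0.51 did not (adjusted p = 0.0785). For enzastaurin against control the block left 0 of 13 calls by limma. MX1 came nearest, at 1.17 (adjusted p = 0.052), followed by OAS3 at 0.82 (adjusted p = 0.0672), and IFI35 changed sign, to 0.03.

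Genes that act before and around the set were taken from 5 lists, and DHX58, IFI16, TRIM21 and TRIM25 stand in more than 1 of them. Their counts are to be read against all genes tested, of which 18.3% were called higher and 36.9% lower with enzastaurin, and 11.8% and 19.9% with Go. The inferred slide limits enzastaurin against control here too, and a slide effect on these genes was not tested. Of 14 interferon genes 13 had a probe and 10 never exceeded background, among them IFNB1 and IFNG. IFNE, IFNL1 and IFNL2 were tested, at normalised intensities under 100 on every array. IFNE was higher with enzastaurin, at 0.49 (SE 0.08, adjusted p = 0.00181), and IFNL2 lower, at -0.45 (SE 0.11, adjusted p = 0.00756). These levels lie near the lower end of what the arrays measure.

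Of 9 genes for receptors and their kinases, 1 was higher and 1 lower with enzastaurin, and 0 higher and 2 lower with Go. IFNGR2, a chain of the interferon gamma receptor, rose by 0.42 with enzastaurin, and the kinase TYK2 was lower, at -0.43. IL10RB, shared by interferon lambda receptors, and JAK1 were lower with Go, at -0.42 and -0.38.

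In the list for nucleic acid sensing, 15 of 18 genes were tested. With enzastaurin 3 were higher and 7 lower, and with Go 1 was higher and 4 lower, shares near those of all genes. IRF3, the factor that starts interferon beta transcription, was called higher with both, by 1.12 (SE 0.19, adjusted p = 0.00158) and 0.85 (SE 0.21, adjusted p = 0.0206). It measured 214, 212 and 230 in control, 542, 549 and 507 with enzastaurin and 306 and 609 with Go. Go 1, at 306, lay on the inferred slide of the controls, and Go 2, at 609, on that of enzastaurin. A slide effect on IRF3 was not tested. TRAF3, an adaptor upstream of IRF3, was lower with both, at -0.82 and -0.52. DHX58 (LGP2), an RNA helicase of the RIGI family, was lower with enzastaurin, at -0.54, and higher with Go than with enzastaurin by 0.86 (SE 0.14, adjusted p = 0.0101). IRF5, which drives inflammatory cytokines, was lower with both inhibitors, at -0.60 and -0.49.

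Of 13 negative regulators, 2 were higher and 3 lower with enzastaurin, and 0 higher and 2 lower with Go. SOCS3, a feedback inhibitor of JAK kinases, was 440, 493 and 456 in control, 781, 895 and 695 with enzastaurin and 283 and 421 with Go. It rose with enzastaurin by 0.71 (SE 0.14, adjusted p = 0.00312) and was lower with Go than with enzastaurin, at -1.08 (SE 0.16, adjusted p = 0.00631). PTPN11, the phosphatase SHP2, rose by 0.72 with enzastaurin, and PIAS4 was lower with both inhibitors, at -0.71 and -0.54.

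Of 49 other interferon-stimulated genes 48 were tested. With enzastaurin 8 were higher and 10 lower, with a median difference of -0.06, and with Go 10 were higher and 2 lower, with a median near 0. PARP14, a mono-ADP-ribosyltransferase, rose with both, from 245, 273 and 296 in control to 581, 553 and 594 with enzastaurin and 581 and 851 with Go, by 0.97 (SE 0.13, adjusted p = 0.000664) and 1.24 (SE 0.14, adjusted p = 0.00315). PARP10 was lower with both, at -1.04 and -0.82. TNFSF10 (TRAIL), a death ligand, was lower with enzastaurin, at -0.92, and higher with Go than with enzastaurin by 0.93 (SE 0.14, adjusted p = 0.00879). HELZ2, a transcriptional co-activator with helicase domains, was lower with enzastaurin, at -0.92.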

How the data were processed

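Total RNA of CAL-27 cells was labelled with Cy3 and hybridised to 8 single-colour arrays, per the labels. The scanner tables deposited by the authors give, per the file headers, spot intensity for foreground and background, a signal-to-noise score, the percent of saturated pixels and spot positions. The authors' deposited value table holds, by comparison with the scanner tables, background-subtracted linear intensity floored at 0.5 and not normalised (medians 38 to 56). The software that made it is not given in the sources used here. The annotation of the scanner tables ran end for end against the spots and was rotated (rank correlation with the authors' values: 0.00731 to 0.013 as deposited and 0.99 to 0.994 rotated). This affects which spots count as above background and the alternative signal, not the values used for the report's fit, which are matched by probe ID.

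The value table was quantile normalised between arrays and taken as log2(value + 50). Probes were named by RefSeq accession or symbol; the rule for members used the gene name in the files. A probe was tested with a signal-to-noise score above 3 on at least 2 arrays, which at most 0.654% of 153 negative control spots exceeded, and each gene was represented by its brightest probe on average. limma 3.58.1 (R 4.3.3) fitted the 3 groups over all 8 arrays (5 residual and 3.87 prior degrees of freedom), and p-values were adjusted by Benjamini-Hochberg over 12931 genes and a threshold of 0.05. Intervals are 95%. The number of arrays limits the precision: on simulated data with independent noise, log2 changes of 2, 1 and 0.5 were recovered in 98%, 87.6% and 46% of cases for enzastaurin against control, and in 97.6%, 81.2% and 34.8% for Go against control. The simulation changed far fewer genes than were called in the data, which makes its adjusted threshold stricter. These rates therefore do not carry over directly to the report's fit.

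The members, lists and markers were chosen with earlier results of these data known. Values on every array are given for members called in at least 1 comparison and for MX1, IFIT1, IFIT2, OASL, ISG15, STAT2, IRF1, IRF9 and CXCL10 in any case. From each list up to 4 called genes with the largest difference are named, and 1 gene of the receptor and kinase list is not reported here; DDX60 and XAF1 were added as listed genes outside the rule. The slide was inferred from spot positions and entered as a block in an alternative. Other alternatives were the rotated scanner signal with normexp correction, 2 scalings, an offset of 16, other filters and probe choices, a trend in the variance prior, the replicate number as a block and each array left out.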

Additional observations from a re-analysis of the deposited data

How the results depend on the processing

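The number of genes called stayed within 1.5 times that reported except where given here. With the slide as a block 0 were called for enzastaurin and 3 for Go, each against control, and 3 within the shared slide; for Go the block leaves 1 Go array in each comparison, so these are the same values. Leaving out 1 array at a time gave 8 to 14 calls for enzastaurin against control, with 8 without control 2, and 3 to 16 for Go against control, with 3 without control 2 or Go 2. Of the calls, 3 of 14 for Go against control (MX1, HERC5, RSAD2) and 3 of 4 for Go against enzastaurin (OASL, IFIT2, SAMD9) held in all alternatives, and 6 of 13 for enzastaurin against control held in all but the slide block. IFI35 against control with enzastaurin became 0.0346 with the slide block, and IFI27, not called, became -0.17 and -0.11 under scaling to the 75th percentile and the median and ranged from -0.0394 to 0.0607 with arrays left out. Of 105 pairs of a gene and a comparison, 18 were called under an alternative only and 56 under none, and 29 of these 56 changed sign. Replicate numbers did not pair the arrays (correlation of same-numbered arrays -0.146 to 0.168). With the replicate block, 13, 14 and 3 genes were called in place of 13, 14 and 4. Calls over all genes also fell with the slide as a block and without control 2. The causes of these changes were not tested. The size of log2 differences for dim genes such as HERC5 depends on the offset, although HERC5 lay above background on all 8 arrays.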
